A study of Mus musculus with 8 samples.

Results

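Glucose uptake genes of skeletal muscle were examined by chromatin accessibility: Slc2a4, Slc2a1 and Slc2a3, which encode the glucose transporters GLUT4, GLUT1 and GLUT3, Tbc1d1 and Tbc1d4, which encode regulators of GLUT4 vesicles, and Hk2, which encodes hexokinase 2. The members were all regions of the deposited table annotated to these 6 genes, which came to 359 of 489637 regions. Of these, 131 passed the filter on low signal, among 124901 tested regions in all. The genes were chosen from values of the same contrast, iMSBmal1KO against vehicle in this table, so every change between groups given here is a description and not a test of the genes as a set. Tbc1d1 had 164 regions (62 tested), Tbc1d4 had 89 (25 tested), Hk2 had 52 (27 tested), Slc2a3 had 28 (7 tested), Slc2a1 had 22 (6 tested) and Slc2a4 had 4 (4 tested).

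The libraries were ATAC-seq libraries, in which a transposase inserts adapters into open DNA, from nuclei of the gastrocnemius, a calf muscle, at 6 months. All 8 libraries came from Cre+:iMSBmal1 fl/fl mice, so the controls also carried the Cre transgene and the floxed Bmal1 alleles. The 4 control libraries were from mice given vehicle and the 4 iMSBmal1KO libraries from mice given tamoxifen, so the loss of Bmal1 and the drug itself cannot be told apart. Each sample used both whole gastrocnemius muscles, and the labels used here name neither the promoter that drives Cre nor the time of day of collection. They do not say that each library was a separate animal, so p-values measure only the spread between these samples. In nuclei of whole muscle, fewer cells of a type and less accessibility per cell cannot be told apart.

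In muscle, insulin and contraction move GLUT4 from vesicles inside the fibre to the cell surface. TBC1D4 (AS160) and TBC1D1 are Rab GTPase-activating proteins that hold these vesicles back until Akt or AMPK phosphorylates them. GLUT1 carries basal uptake, GLUT3 is a high-affinity transporter best known from neurons and also made by leukocytes, and hexokinase 2 traps the sugar as glucose-6-phosphate. BMAL1, a transcription factor of the circadian clock, pairs with CLOCK and binds the E-box CACGTG. Earlier work on mice without muscle Bmal1 described lower insulin-stimulated glucose uptake with less GLUT4 and TBC1D1 protein.

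Library depth, counted over the regions in M (1e+06 read equivalents), ran between 4.31 and 29.5, and the median tested region held from 6 to 51.0 reads. Vehicle replicate 4 stood apart. It had the lowest depth, 24.9% of regions at 0 against 2.36% to 11.8% in the other libraries, and 16.5% of its signal on the mitochondrial chromosome against 1.11% to 5.51%. Summed signal at Bmal1 itself, listed as Arntl, averaged 2359 ± 334 for vehicle and 3228 ± 176 for iMSBmal1KO (SD, n = 4 each; limma adjusted p = 0.318), which does not check the deletion, since the labels do not name the deleted part. The defining genes of fast muscle fibres were open in every library, with a summed signal of 14305 to 24151 in vehicle and 19311 to 22710 in iMSBmal1KO. The median log2 change of all tested regions was 0.12 as deposited, 0.01 with median-of-ratios factors and 0.04 without vehicle replicate 4, and changes are read relative to that shift.

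RefSeq promoter sequences (GRCm38.p6) were matched for Tbc1d1 (2 promoters), Tbc1d4, Slc2a1 and Hk2. The deposited table annotates other Tbc1d1 starts as well. The sequences of the 2 TBC1D regulators are shown because the estimated changes at their matched starts, none past the threshold, differ in sign. Each runs 5′ to 3′ on the strand of the gene over the 250 bases before the annotated start, and capitals mark CAGCTG, an E-box bound by myogenic factors. The positions are chr5:64160010-64160259 and chr5:64230107-64230356 on the plus strand for Tbc1d1, and chr14:101609192-101609441 on the minus strand for Tbc1d4.
Tbc1d1 first promoter: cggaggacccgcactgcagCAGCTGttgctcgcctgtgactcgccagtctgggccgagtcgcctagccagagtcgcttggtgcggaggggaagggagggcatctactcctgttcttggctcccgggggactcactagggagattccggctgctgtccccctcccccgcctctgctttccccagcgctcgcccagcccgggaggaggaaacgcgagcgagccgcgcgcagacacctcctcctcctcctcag
Tbc1d1 internal promoter: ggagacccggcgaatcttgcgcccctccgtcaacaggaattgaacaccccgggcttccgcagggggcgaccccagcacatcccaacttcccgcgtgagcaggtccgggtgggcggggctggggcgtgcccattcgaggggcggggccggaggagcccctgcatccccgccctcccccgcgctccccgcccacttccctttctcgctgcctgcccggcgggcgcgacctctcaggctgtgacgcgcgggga
Tbc1d4 promoter: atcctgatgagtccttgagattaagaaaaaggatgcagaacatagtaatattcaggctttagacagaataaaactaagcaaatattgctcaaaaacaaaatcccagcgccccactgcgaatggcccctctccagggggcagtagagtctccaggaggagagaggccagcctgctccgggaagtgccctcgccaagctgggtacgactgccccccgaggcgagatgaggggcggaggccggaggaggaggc

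The 5 member promoters were searched on both strands for the E-box CACGTG, for the E-box CAGCTG, for AGGTCA (bound by nuclear receptors) and for the MEF2 consensus. The search found 1 match, the CAGCTG in the first Tbc1d1 promoter, 231 to 226 bases before the start. Of 32851 RefSeq promoters of the same length, 6.02% held CACGTG. The shares were 13% for CAGCTG, 14% for the nuclear receptor site AGGTCA and 2.92% for the MEF2 consensus. The first Tbc1d1 promoter had 68.4% G and C and 20 CpG pairs, the internal one 73.6% and 27, the Hk2 promoter 69.6% and 25, and the Slc2a1 promoter 66.4% and 13. The Tbc1d4 promoter, with 54.8% and 9 CpG pairs, lay closest to the median of all promoters, 52.4% and 6. The table's regions covered all 250 bases of the first Tbc1d1 promoter, 106 of the internal one and 238 of that of Tbc1d4.

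The genes were ordered by the regions within 1000 bp of an annotated start, as signal per kb of region. In vehicle, Slc2a4 was the most open promoter, at 1601 ± 264 signal per kb (SD, n = 4), the 98.7 percentile of 17157 genes. Hk2 followed at 632 ± 131 (percentile 84.0) and Slc2a1 at 495 ± 43.1 (percentile 76.8). Tbc1d1 stood at 345 ± 72.6 (percentile 65.1), Tbc1d4 at 276 ± 69.9 (percentile 57.7), and Slc2a3 was lowest at 139 ± 37.1 (percentile 38.3). In iMSBmal1KO the levels were 1607 ± 232 at Slc2a4, 619 ± 47.1 at Hk2, 558 ± 45.5 at Slc2a1, 286 ± 63.9 at Tbc1d1, 341 ± 22.6 at Tbc1d4 and 61.4 ± 9.77 at Slc2a3 (SD, n = 4 each). The order of the first 3 genes and the place of Slc2a3 were the same in both groups, while Tbc1d1 and Tbc1d4 traded places.

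Neighbours in the order over all 8 libraries were compared within each library by an exact two-sided sign-flip permutation test, whose smallest possible p with 8 libraries is 0.0078125, adjusted over the 5 pairs. Both groups enter these ratios, so the change between groups on which the genes were chosen is part of them. The order was taken from the same values. The p-values therefore describe how steady each step was over the libraries and are no independent test of the order. Slc2a4 exceeded Hk2 by 1.36 ± 0.24 on the log2 scale (SD, higher in 8 of 8 libraries, permutation adjusted p = 0.0130). Hk2 exceeded Slc2a1 by 0.24 ± 0.19 (7 of 8 libraries, permutation adjusted p = 0.0195), and Slc2a1 exceeded Tbc1d1 by 0.77 ± 0.32 (8 of 8 libraries, permutation adjusted p = 0.0130). Tbc1d1 over Tbc1d4 had a log2 ratio of 0.03 ± 0.45 over both groups (5 of 8 libraries, permutation adjusted p = 0.859), which mixes 0.33 ± 0.22 in vehicle, where Tbc1d1 was higher in 4 of 4 libraries, with -0.28 ± 0.42 in iMSBmal1KO, where it was higher in 1 of 4. Tbc1d4 exceeded Slc2a3 by 1.74 ± 0.87 (8 of 8 libraries, permutation adjusted p = 0.0130), which mixes 1.00 ± 0.44 in vehicle with 2.48 ± 0.28 in iMSBmal1KO. The ratios were not tested within a group. Taking the highest single region near a start in place of the window put Tbc1d1 above Slc2a1, with a log2 ratio of Slc2a1 over Tbc1d1 of -0.52, and above Tbc1d4, by 0.85, and Tbc1d4 over Slc2a3, at 1.43, no longer passed the threshold (permutation adjusted p = 0.0938).

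**Figure D1:**
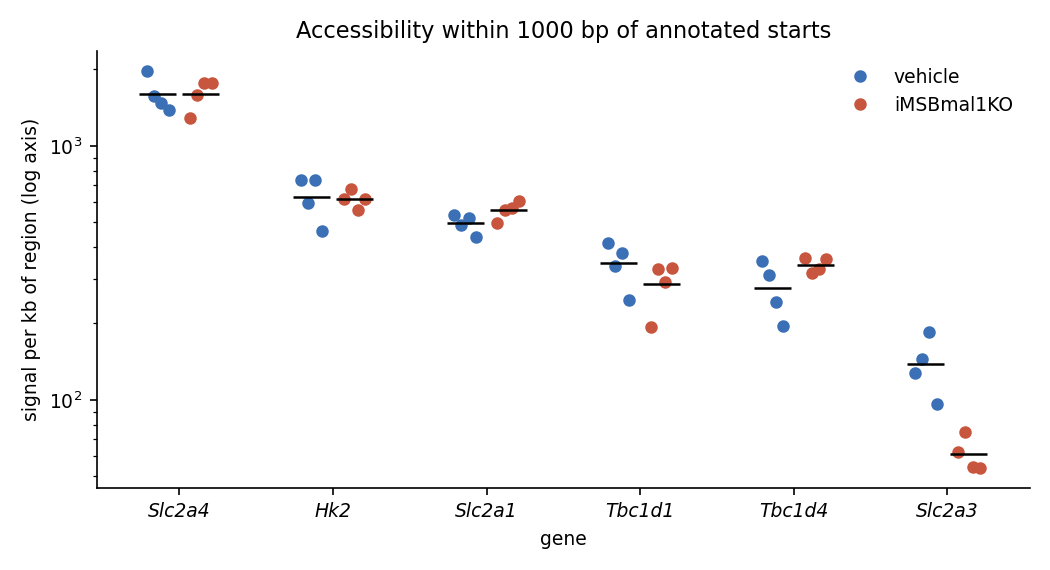
Signal per kb of the regions within 1000 bp of annotated starts (log axis) for each gene, with 1 point per library and a line at each group mean of 4 libraries. Slc2a4 lies highest in every library, Tbc1d1 and Tbc1d4 overlap, and Slc2a3 lies lowest, with iMSBmal1KO below vehicle.

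The genes also differed in how their signal was spread. At Slc2a4 the region over the start held 77.3% of all signal of the gene, against 56.0% in the highest region of Slc2a1, 53.8% at Slc2a3, 31.6% at Hk2, and 23.8% at both Tbc1d1 and Tbc1d4. Only 19.8% of the Tbc1d1 signal lay within 1000 bp of an annotated start, and 26.2% of that of Tbc1d4. These 2 regulators are long genes, of 195182 and 166922 bp in RefSeq, with most of their accessible regions in introns.

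Between the groups, 1 of the 131 tested regions passed a limma adjusted p under 0.05, a lower one at Slc2a3, beside 0.0881% of all tested regions in either direction and 0.0568% in that one. An unadjusted p under 0.05 was reached by 4 higher and 18 lower member regions, beside 6.59% and 2.63% of all tested regions. Groups of 4 libraries did not overlap at 4 regions that were higher in iMSBmal1KO and 9 that were lower, where 3.62% and 1.87% of all tested regions did so. Of the 9 lower regions, 4 passed the filter on low signal through vehicle alone, with 0 iMSBmal1KO libraries reaching it. Of the 4 higher ones, 1 passed through iMSBmal1KO alone. The Slc2a3 regions from 122801169 and 122801835 and the Tbc1d1 region from 64288148 reached it in 4 vehicle libraries and 1 iMSBmal1KO library. Vehicle was therefore enough for these lower regions too. The tested direction of all of these regions follows in part from the filter. The median log2 change of the 131 regions was -0.03, with 71 negative values, beside 38% of all tested regions with a negative value. By gene, the median was 0.28 at Tbc1d4, 0.11 at Slc2a1, 0.02 at Slc2a4, -0.00 at Hk2, -0.40 at Tbc1d1 and -1.15 at Slc2a3. The value for Slc2a3 depends on which regions are kept, with -0.38 without a filter and -1.93 with a filter 3 times as high. The regions that failed the filter held a mean signal of at most 13.4 over the 8 libraries.

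**Figure D2:**
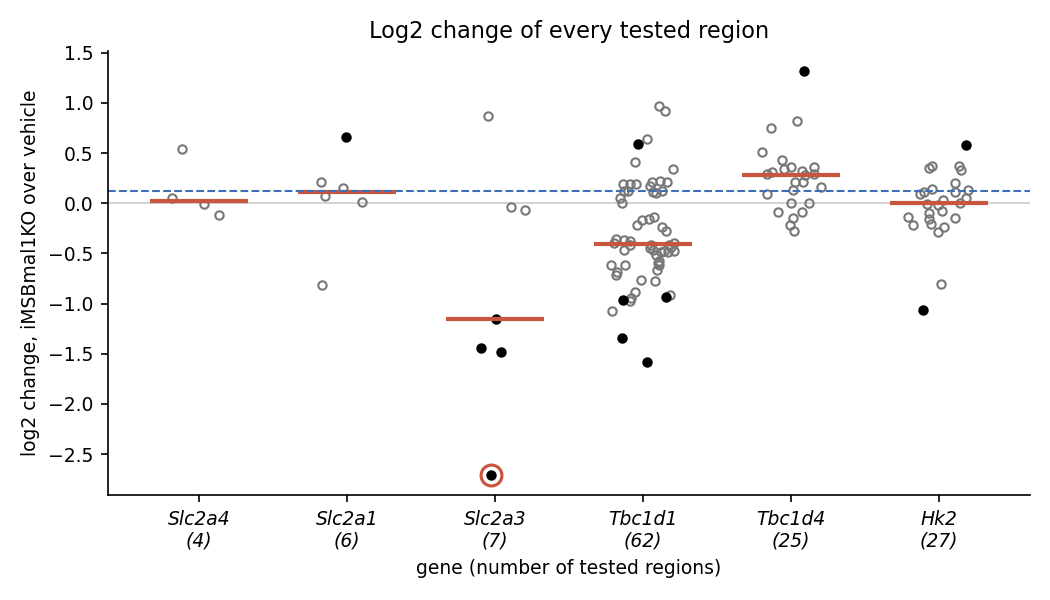
Log2 change (iMSBmal1KO over vehicle) of every tested region of the 6 genes, with filled points where the groups do not overlap, a ring where the limma adjusted p is under 0.05, a red line at each gene's median and a dashed line at the median of all tested regions (0.12). Slc2a3 and Tbc1d1 lie mostly below the dashed line and Tbc1d4 mostly above it.

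Slc2a3, the gene for the high-affinity transporter GLUT3, had less open chromatin in iMSBmal1KO. Summed over its regions, the signal was 532, 578, 557 and 366 in vehicle, while iMSBmal1KO had 211, 263, 253 and 290. Every iMSBmal1KO library lay below every vehicle library, as at 1.18% of all genes. The group means were 508 ± 96.9 for vehicle and 254 ± 32.5 for iMSBmal1KO (SD, n = 4 each), and the log2 change was -0.98 ± 0.17 (SE; limma adjusted p = 0.0242). This was the 13th smallest p of 19404 genes, of which 0.17% passed the threshold in either direction and 0.0722% in this one, and it was the single member gene whose sum did. Leaving out 1 library at a time, the change ran from -1.13 to -0.90, and the adjusted p missed the threshold in 6 of 8 fits, with a highest value of 0.109. Without vehicle replicate 4 the change was -1.13 (limma adjusted p = 3.43e-04).

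The region that passed the threshold lay in a 5′ UTR exon of Slc2a3 on chromosome 6, 122801169 to 122801256, 385 bp inside the annotated start of its transcript. Its signal was 53.3, 60.6, 68.6 and 34.4 in vehicle and 5.99, 11.7, 5.96 and 6.27 in iMSBmal1KO. The vehicle libraries held 11 to 108 reads there and the iMSBmal1KO libraries 5 to 14, so the lower level rests on few reads, and 1 of the 4 iMSBmal1KO libraries reached the filter. The log2 change was -2.71 ± 0.33 (SE, limma adjusted p = 6.96e-04), and the region passed in all 17 other settings tried, in which the change ran from -3.06 to -2.23. It was also the strongest Slc2a3 region within 1000 bp of a start.

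The highest Slc2a3 region lay in intron 2, on chromosome 6 at 122795467 to 122795892, 5749 bp inside the start. It held 324, 324, 261 and 216 in vehicle and 82.6, 119, 143 and 171 in iMSBmal1KO. These groups also did not overlap, and the log2 change of -1.15 ± 0.24 (SE) had a limma adjusted p of 0.0771, just outside the threshold. It passed in 8 of the 17 other settings, among them the fit without vehicle replicate 4 (log2 change -1.27, limma adjusted p = 0.00658).

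Around the Slc2a3 start the pattern was uneven. The region that abuts the called one, 122801256 to 122801382, held 12.8, 22.6, 45.8 and 18.8 in vehicle and 7.28, 8.36, 4.77 and 10.0 in iMSBmal1KO (log2 change -1.48, limma adjusted p = 0.253), and passed the filter through vehicle alone. A region annotated as start, 122801835 to 122801970, held 14.9, 15.4, 20.3 and 21.9 in vehicle and 9.62, 6.69, 7.16 and 2.51 in iMSBmal1KO (log2 change -1.44, limma adjusted p = 0.329). Both sets of groups were separate, while 2 regions between them, from 122801424 and 122801619, had overlapping groups and log2 changes of -0.03 and -0.06, or -0.35 and -0.52 without vehicle replicate 4. Farther into intron 2, the region from 122786435 had a log2 change of 0.87 (limma adjusted p = 0.561), or 0.54 without vehicle replicate 4, with 1 to 15 reads in the vehicle libraries. The 15 tested regions within 50 kb on either side of Slc2a3, among them regions of Nanog and Foxj2, had a median log2 change of 0.13. None passed the threshold or had separate groups, where 0.0881% and 5.48% of all tested regions did, so these counts are near the general shares. An unadjusted limma p under 0.05 was reached by 3 of the 15, all higher, beside 6.59% of all tested regions. Whether Slc2a3 differs from these flanks was not tested.

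**Figure D3:**
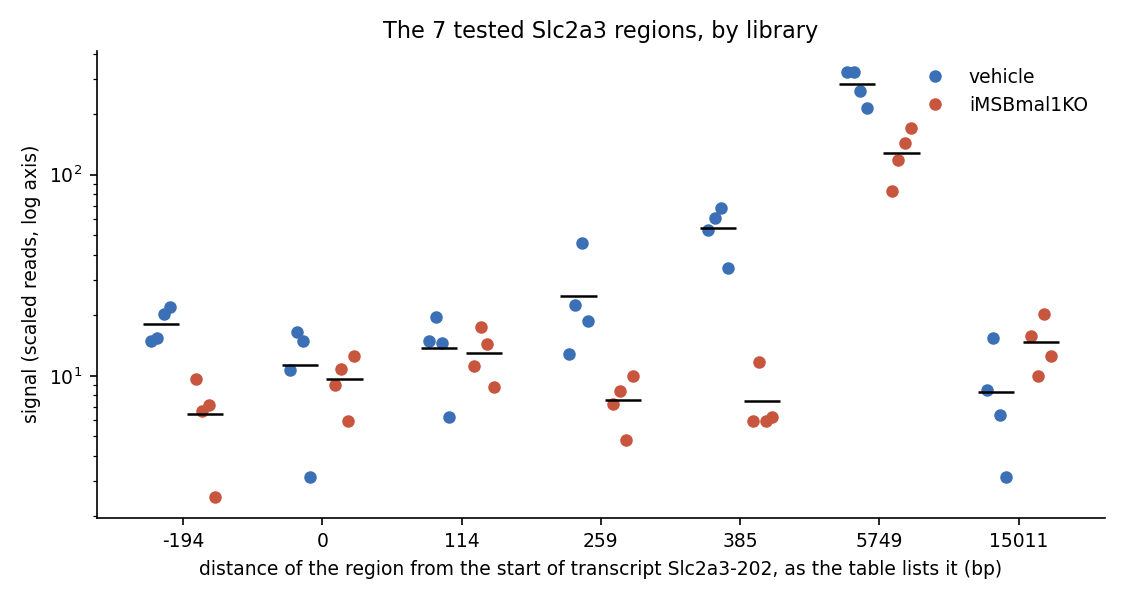
Signal (log axis) at the 7 tested Slc2a3 regions, ordered by their distance in bp from the annotated start, with 1 point per library and a line at each group mean. The groups are separate at 4 regions, with the widest gap 385 bp inside the start, and overlap at the other 3.

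Tbc1d1, the regulator reached by AMPK and Akt in muscle, had many regions with a lower estimate in iMSBmal1KO, none of which passed the threshold. Of its 62 tested regions 42 had a negative log2 change and 48 lay below the median of all tested regions, under which 50% of all regions lie by construction, and the median was -0.40. The summed signal was 6860, 5788, 6317 and 4387 in vehicle and 3263, 4995, 4771 and 5147 in iMSBmal1KO. The groups overlapped, because vehicle replicate 4 lay below 3 of the iMSBmal1KO libraries. Vehicle averaged 5838 ± 1062 and iMSBmal1KO 4544 ± 868 (SD, n = 4 each), and the log2 change was -0.36 ± 0.16 (SE, limma adjusted p = 0.474). It was -0.50 without vehicle replicate 4 (limma adjusted p = 0.237) and -0.21 without iMSBmal1KO replicate 1 (limma adjusted p = 0.765).

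The main start of Tbc1d1, on chromosome 5 at 64159714 to 64160317, covers the first promoter printed above. It held 954, 742, 778 and 557 in vehicle and 350, 677, 633 and 724 in iMSBmal1KO, with overlapping groups; the log2 change was -0.37 ± 0.23 (SE; limma adjusted p = 0.602). The most open region of the gene was not at a start but in intron 2, at 64196281 to 64197383. It held 1792, 1371, 1423 and 1022 in vehicle and 589, 1119, 1368 and 1194 in iMSBmal1KO, again overlapping (log2 change -0.43, limma adjusted p = 0.576). In both regions iMSBmal1KO replicate 1 was the lowest of the 8 libraries, and without it the log2 changes were -0.14 at the start and -0.17 in intron 2.

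The internal start of Tbc1d1, used by a shorter annotated transcript, had a positive estimate. The region at 64230298 to 64230409, named after its values were seen, held 38.4, 49.3, 48.3 and 34.4 in vehicle and 62.1, 74.4, 62.0 and 57.7 in iMSBmal1KO. Every iMSBmal1KO library exceeded every vehicle library, by 0.59 ± 0.25 on the log2 scale (SE; limma adjusted p = 0.508), which did not pass. It was the single Tbc1d1 region of 62 tested with separate groups and a higher value in iMSBmal1KO, against 4 with a lower one. Of all tested regions, 3.62% were separate and higher and 1.87% separate and lower. Of the 5 tested Tbc1d1 regions annotated as a start, 4 had a positive log2 change and the main start a negative one. Of all 31331 tested start regions, 21903 had a positive one. The 2 tested regions after the earliest annotated start, from 64156365 and 64156783, had log2 changes of 0.11 and 0.10. Without vehicle replicate 4 these were 0.09 and -0.25. Whether the starts differ in their change was not tested.

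Among those 4, the smallest p was in intron 12, at 64288148 to 64288291, with 33, 26.7, 24.8 and 15.6 in vehicle and 13.7, 6.69, 3.58 and 8.78 in iMSBmal1KO (log2 change -1.58 ± 0.39 SE, limma adjusted p = 0.189). Without vehicle replicate 4 it passed the threshold, with a log2 change of -1.78 (limma adjusted p = 0.0488). Intron 2 held another, at 64247727 to 64248400, named after its values were seen, with 104, 121, 132 and 116 in vehicle and 49.7, 51.8, 71.6 and 76.5 in iMSBmal1KO. Its log2 change of -0.93 ± 0.23 (SE) had a limma adjusted p of 0.194 as deposited, 0.0356 after loess scaling and 0.0120 with limma-voom on read equivalents. The remaining 2, from 64326947 and 64349167, had log2 changes of -1.34 and -0.97 and passed the filter through vehicle alone. The most positive Tbc1d1 estimate, 0.97 at 64322563 to 64322613, came from a region listed at 0 in vehicle replicate 4, was 0.09 without that library and had overlapping groups.

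Along Tbc1d1 the share of negative values was highest in the stretch from the main start to the internal start. Of the 25 regions tested there, between 64159714 and 64230153, 23 had a negative log2 change, with a median of -0.47. In the next stretches the median was -0.16 over 9 regions and 0.17 over 7 regions. From the last annotated start to the end of the gene it was -0.40 over 19 regions, 12 of them negative. The mean log2 difference of the summed signal was -0.44 in the first stretch and -0.44 in the stretch that follows it. In the latter the sums were 516, 514, 587 and 450 in vehicle and 312, 416, 365 and 433 in iMSBmal1KO, with separate groups. In the first stretch the groups overlapped. Whether the stretches differ was not tested. Much of the first stretch moved with 1 library. In 21 of those 25 regions iMSBmal1KO replicate 1, the deepest library, held the lowest value of all 8, and without it the median there was -0.29, with 22 negative values. Without vehicle replicate 4 it was -0.66. The part of depth in these values was not tested. Among regions not annotated to Tbc1d1, the 16 tested ones up to 50 kb on either side had a median log2 change of -0.25. Of these, 10 had a negative value, 12 lay below the median of all tested regions and 0 passed the threshold, as 0.0881% of all tested regions did. The summed signal of all 61 regions there was 635, 646, 627 and 625 in vehicle and 580, 554, 543 and 543 in iMSBmal1KO. Whether Tbc1d1 differs from these flanks was not tested.

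**Figure D4:**
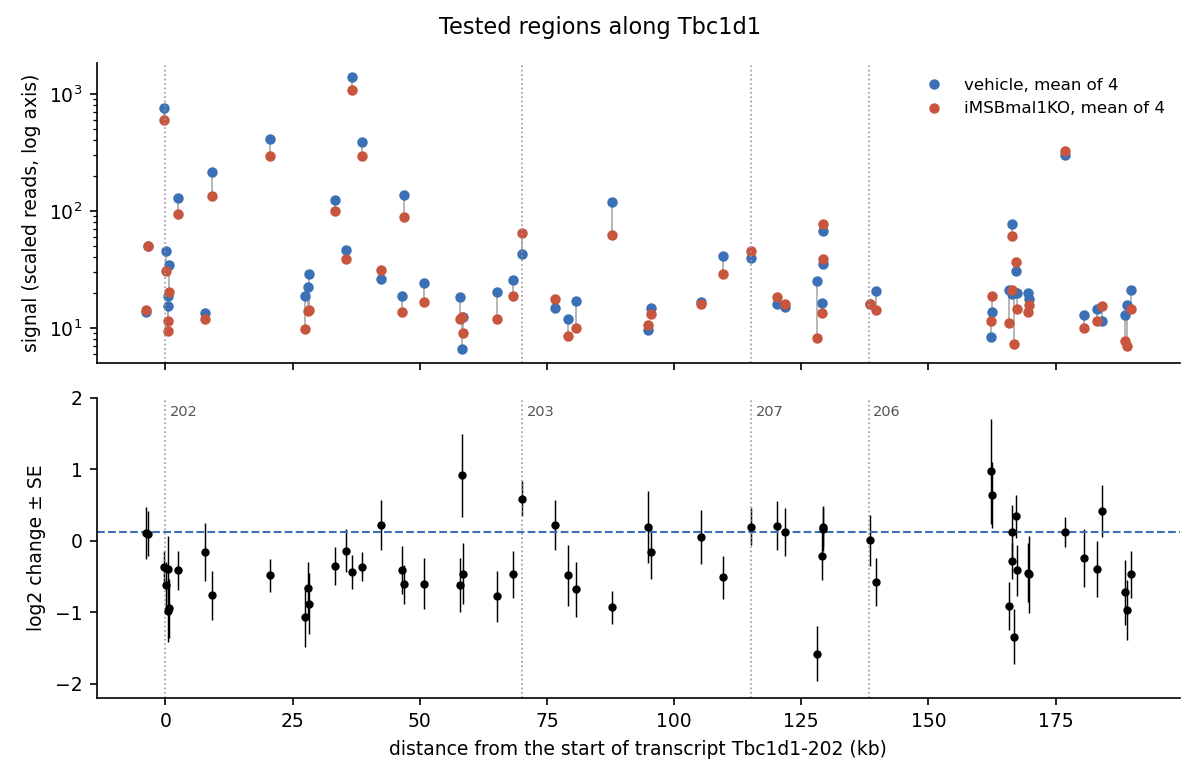
Tested Tbc1d1 regions by distance in kb from the main start, with group means of 4 libraries above (signal, log axis) and the log2 change ± SE below; dotted lines mark annotated starts, with the number of the transcript, and the dashed line the median of all tested regions. Most values before the internal start (the second dotted line) lie below the dashed line, and the region at that start lies above it.

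Tbc1d4, the insulin-responsive regulator, had mostly positive estimates, none past the threshold. Positive values were found at 19 of its 25 tested regions, whose median was 0.28, and without vehicle replicate 4 the median was 0.16. Most regions of the whole table were positive too, 77491 of 124901 tested, with a median of 0.12. Set against that shift, 17 Tbc1d4 regions were higher and 8 were lower. The summed signal was 2253, 2182, 1812 and 1495 in vehicle and 2581, 2175, 2076 and 2254 in iMSBmal1KO. The groups overlapped, at 1936 ± 352 and 2271 ± 219 (SD, n = 4 each), and the log2 change was 0.24 ± 0.15 (SE; limma adjusted p = 0.552), or 0.13 without vehicle replicate 4. The start region, on chromosome 14 at 101608551 to 101609365, held 599, 497, 390 and 306 in vehicle and 576, 517, 528 and 593 in iMSBmal1KO (log2 change 0.35, limma adjusted p = 0.594), or 0.18 without vehicle replicate 4. In this region the 2 lowest values were those of vehicle replicates 3 and 4.

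A weak region in intron 1 of Tbc1d4, at 101542035 to 101542206, had the highest log2 change of all the member regions, 1.32 ± 0.39 (SE, limma adjusted p = 0.343). It held 8.53, 4.11, 8.90 and 6.25 in vehicle and 26.1, 12.5, 15.5 and 21.3 in iMSBmal1KO, with separate groups, on 2 to 14 and 13 to 61 reads, and passed the filter through iMSBmal1KO alone. The nearby region from 101540547 had the most negative Tbc1d4 value, -0.27 (-0.17 without iMSBmal1KO replicate 3), with overlapping groups. A region that the table annotates to a 3′ UTR exon of a shorter transcript, from 101483333, had a log2 change of 0.36 (limma adjusted p = 0.568).

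Slc2a4, the gene for GLUT4, did not move beyond the spread of its libraries. Its summed signal was 3381, 2674, 2522 and 2358 in vehicle and 2197, 2712, 3036 and 3034 in iMSBmal1KO. The highest and the lowest value both came from a replicate 1, and the groups overlapped. The means were 2734 ± 451 and 2745 ± 396 (SD, n = 4 each), and the log2 change, 0.01 ± 0.15 (SE; limma adjusted p = 0.989), turned to -0.11 with median-of-ratios factors. The start region, on chromosome 11 at 69948186 to 69949157, held 2663, 2117, 1852 and 1845 in vehicle and 1629, 2045, 2343 and 2440 in iMSBmal1KO (log2 change -0.00 ± 0.17 SE, limma adjusted p = 0.995). Of the other 3 regions, that from 69947393, in a 5′ UTR exon, had a log2 change of 0.05, that from 69947914 of -0.11 and the weak one from 69947854 of 0.54, all with overlapping groups.

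Slc2a1, the gene for the basal transporter GLUT1, had the least spread among vehicle libraries of the 6 genes, with sums of 573, 533, 576 and 535 in vehicle and 545, 585, 629 and 639 in iMSBmal1KO. The groups overlapped, and the log2 change, 0.11 ± 0.14 (SE; limma adjusted p = 0.767), turned to -0.01 with median-of-ratios factors. At the start, on chromosome 4 at 119108663 to 119109089, the log2 change was 0.15 with overlapping groups (limma adjusted p = 0.789), or 0.24 without iMSBmal1KO replicate 1. A smaller region in the 5′ UTR exon, at 119109144 to 119109230, held 40.5, 39.0, 31.8 and 37.5 in vehicle and 56.9, 56.0, 60.8 and 64.0 in iMSBmal1KO. These groups were separate, by 0.67 ± 0.24 on the log2 scale (SE; limma adjusted p = 0.468). In intron 3, the region from 119124902 had a log2 change of -0.81 on 3 to 28 reads in the iMSBmal1KO libraries (limma adjusted p = 0.585), or -0.40 without iMSBmal1KO replicate 2.

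Hk2, which commits the imported glucose to metabolism, had sums of 2675, 2011, 2399 and 1626 in vehicle and 2107, 2377, 2098 and 2204 in iMSBmal1KO. The vehicle libraries spread on both sides of the iMSBmal1KO ones, and the log2 change was 0.04 ± 0.15 (SE, limma adjusted p = 0.942), or -0.08 with median-of-ratios factors and -0.10 without vehicle replicate 4. Its start, on chromosome 6 at 82774361 to 82774878, held 841, 662, 806 and 491 in vehicle and 701, 760, 610 and 666 in iMSBmal1KO, overlapping. Among its introns, the region at 82753604 to 82753789 held 61.8, 52.4, 63.5 and 46.9 in vehicle and 72.3, 88.6, 85.9 and 90.3 in iMSBmal1KO. These groups were separate, at 0.58 ± 0.23 on the log2 scale (SE; limma adjusted p = 0.498). In a 5′ UTR exon, the region from 82768448 was lower with separate groups, at -1.06 (limma adjusted p = 0.519), on 4 to 12 reads in the iMSBmal1KO libraries, and passed the filter through vehicle alone.

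**Figure D5:**
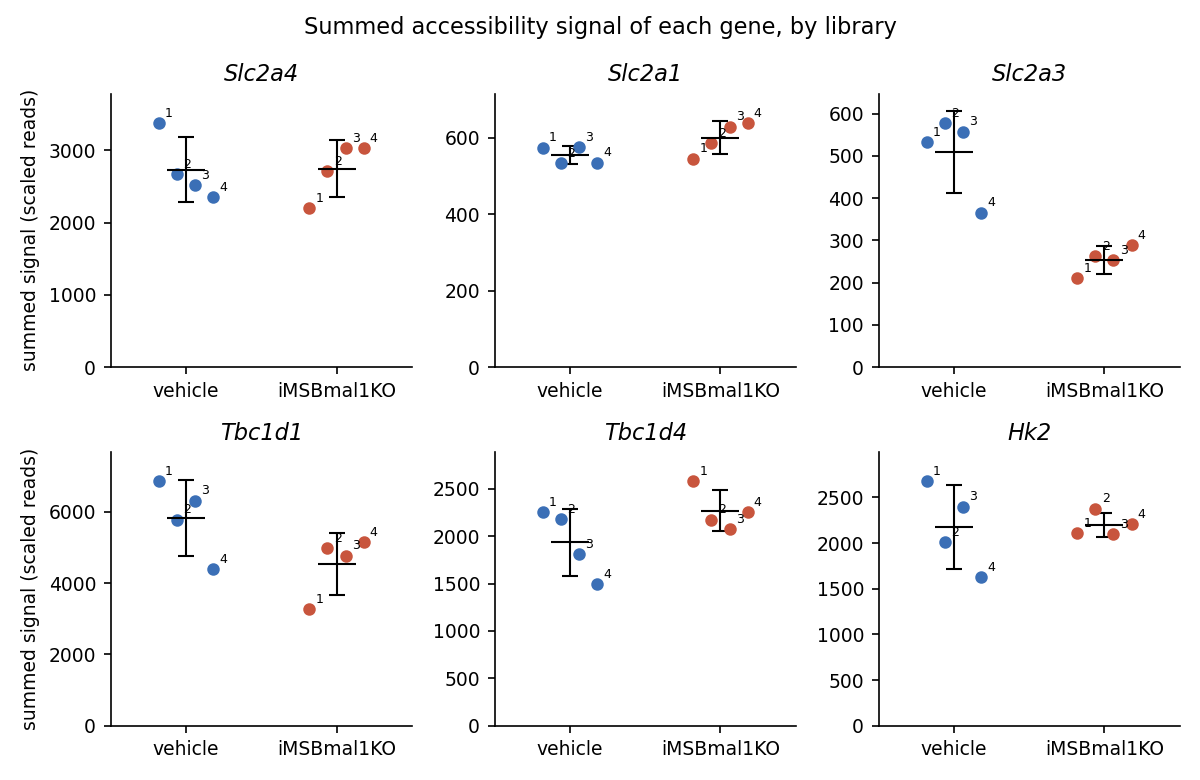
Summed signal of all regions of each gene, with 1 numbered point per replicate and the mean ± SD of 4 libraries per group; each axis starts at 0. The groups are separate at Slc2a3 and overlap at the other 5 genes.

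Some genes outside the 6 followed them closely over the 8 libraries, which share depth and scaling. The highest Pearson correlations of log2 summed signal, among 9379 genes with at least 3 tested regions, were those of Bcam (0.978), Fgf2 (0.969) and Pnpla8 (0.967) with Tbc1d1. With Tbc1d4 they were Sgcd (0.995), Plpp1 (0.988) and Parg (0.987). The 3 transporters came closest to Gm30122 (0.959), Dcc (0.951) and Peak1 (0.940) for Slc2a1, to Sorbs3 (0.977), Cdc14b (0.965) and Srgap3 (0.964) for Slc2a3, and to Chchd10 (0.993) and Csmd2 (0.967) for Slc2a4. Hk2 came closest to Trim72 (0.983), Dnajb5 (0.980) and Ttc4 (0.974). These are the tops of long rankings over few libraries and are given as a description.

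The other genes of the pathway, taken from lists, had no region and no gene sum past the threshold in either direction. Over the whole table, 0.0881% of tested regions and 0.17% of gene sums passed, so counts of 0 are near those shares. Of the genes of GLUT4 vesicle traffic, 33 of 36 had tested regions, 239 in all with a median log2 change of 0.19. The 252 regions of 18 genes that signal to TBC1D1 and TBC1D4 had a median of 0.10, and the 248 regions of 13 of 14 transcription factors of Slc2a4 had 0.00. Other glucose transporters (30 regions of 8 of 11 genes) had a median of 0.15, and other hexokinases (20 regions of 4 of 6 genes) of -0.00. The smallest p in vesicle traffic was at Exoc6, a subunit of the exocyst that tethers vesicles at the membrane, with 525 ± 46.0 for vehicle and 703 ± 71.3 for iMSBmal1KO (SD, n = 4 each; log2 change 0.42, limma adjusted p = 0.443). Exoc5, another exocyst subunit, had a log2 change of 0.45 (limma adjusted p = 0.467).

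Among the kinases, Prkaa1, which encodes a catalytic subunit of AMPK, had separate groups, higher in iMSBmal1KO as at 4.04% of all genes, at 204 ± 22.5 for vehicle and 261 ± 26.5 for iMSBmal1KO (SD, n = 4 each; log2 change 0.36, limma adjusted p = 0.474). Irs1, the insulin receptor substrate, had a log2 change of 0.40 (limma adjusted p = 0.476). Slc2a10, a transporter of the same family, had 226 ± 45.8 and 173 ± 31.1 (SD, n = 4 each; log2 change -0.37, limma adjusted p = 0.499), and Slc2a5, the fructose transporter, had a log2 change of 0.25 (limma adjusted p = 0.576). Hkdc1, of the hexokinase list, had a log2 change of 0.16 (limma adjusted p = 0.785). Mef2c and Cebpa, of the list of transcription factors, had 0.27 (limma adjusted p = 0.518) and 0.25 (limma adjusted p = 0.540).

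Marker genes of other cells, several of which also use GLUT1 or GLUT3, had no region and no gene sum past the threshold. These counts too are near the shares of all tested regions and genes, 0.0881% and 0.17%. The summed signal of the leukocyte list, 5 of 6 genes in the table, ran from 411 to 704 in vehicle and from 438 to 566 in iMSBmal1KO. That of the endothelial list, all 6 genes, ran from 1426 to 1894 and from 1514 to 1819. Fibro-adipogenic genes (5 of 5) ran from 520 to 734 and from 553 to 792, with Lum at 0 in a library, and adipocyte genes (4 of 5) from 110 to 138 and from 114 to 124. Satellite cell genes (5 of 5) ran from 695 to 763 in vehicle and from 788 to 932 in iMSBmal1KO and did not overlap. Single gene sums were separate and higher in iMSBmal1KO at 4.04% of all genes, a share that was not computed for list totals. Most of the satellite cell total lay at Pax7, which averaged 506 in vehicle and 608 in iMSBmal1KO. Of the 4 satellite cell genes with tested regions, 3 had a positive log2 change and 1 a negative one. Pax7 was at 0.26 (limma adjusted p = 0.532) and Myf5 at -0.18 (limma adjusted p = 0.735). Schwann cell genes (3 of 4) ran from 222 to 449 and from 410 to 532. Smooth muscle and pericyte genes (4 of 4) ran from 785 to 900 and from 768 to 1044, and slow fibre genes (5 of 6) from 660 to 756 and from 646 to 761. The part of these cells in the changes at the 6 genes was not tested.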

How the data were processed

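ATAC-seq gave 8 libraries of chromatin accessibility, 4 per group. The authors deposited 1 table of 489637 regions with a scaled signal per library, and the 8 value columns matched samples by name. Of the non-zero signal values under 100 reads, 98.6% to 99.8% per library were whole multiples of a step of 0.428 to 3.13, within 0.02 reads, and signal divided by the step is called read equivalents. The submitters' processing notes name Partek, Bowtie2, MACS2, DESeq2, mm10 and GRCm39, with no role given. Settings, duplicate removal and the shift of reads for the transposase, which could move the values, are not given in the sources used here. The table names no build, and its coordinates are given as listed. All regions of Tbc1d1, Slc2a3, Slc2a4 and Hk2, 88 of 89 of Tbc1d4 and 19 of 22 of Slc2a1 overlapped the RefSeq gene of GRCm38.p6.

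Regions with at least 0.762 read equivalents per M in 4 libraries and 15 in all were tested with limma-trend (limma 3.58.1, R 4.3.3; robust) on log2(signal + 1), with group as the term and Benjamini-Hochberg adjustment over all 124901 regions. Gene sums over all regions of a gene were fitted likewise over 19404 genes. Log2 changes on the log2(signal + 1) scale understate changes of weak regions. Abutting regions were not merged, so neighbours are not independent. Scripts ran in Python 3.11.15 with numpy 2.4.6, pandas 2.3.3 and matplotlib 3.10.9. The region fit was tested on simulated data with 200 changed regions and the same spread setting for all regions. It called 69% of 4-fold changes, 3% of 2-fold changes and 0 unchanged regions. For a single region, not passing the threshold therefore says little about changes of 2-fold or less. The spread setting was not estimated from these data, and gene sums were not simulated, so the simulation does not bear on them.

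The members and lists were chosen with earlier results of these data known. Named regions were, per gene, the highest in the gene, the highest near a start, and those with the smallest p, the most positive and the most negative change; other member regions were named after their values were seen. Per pathway list the 2 genes with the smallest p were named, and for each member the 3 genes with the highest correlation; 2 genes that these rules give are not reported here. Marker lists covered fast and slow fibres, satellite cells, endothelium, leukocytes, fibro-adipogenic cells, adipocytes, Schwann cells and smooth muscle. Alternatives were other pseudocounts, scalings, filters, start windows, limma-voom, a replicate block and leaving out each library. Count tests were planned and not run, since the lowest values were not whole multiples.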

Additional observations from a re-analysis of the deposited data

Results flagged for a closer look

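At the Slc2a3 region from 122801169, the one member region that passed the threshold, iMSBmal1KO replicate 2 held a signal of 11.7, while the other 3 libraries of its group held 5.96 to 6.27. The gap of this library to the nearest other was 0.946 of the range of the group, above Dixon's 95% critical value for 4 libraries. It was the 1 value beyond that limit among 62 group values compared, where chance would give about 3.1. All 4 vehicle libraries still lay above it, and without this library the log2 change was -2.92 (limma adjusted p = 0.00127).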

How the results depend on the processing

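The negative sums and medians of Slc2a3 and Tbc1d1, the positive ones of Tbc1d4, and the order of Slc2a4, Hk2 and Slc2a1 near their starts kept their direction in every setting run. Member regions past the threshold, 1 as reported, were 2 with a pseudocount of 5, median-of-ratios or trimmed-mean factors, no filter, a filter 3 times as high or a threshold of 0.1, 3 with loess scaling or limma-voom, and 1 to 3 leaving out a library (3 without vehicle replicate 4). All tested regions past the threshold, 110 as reported, were 279 with median-of-ratios factors, 277 with trimmed-mean factors, 342 with loess, 642 with voom, 195 without a filter, 175 at a threshold of 0.1, and 32 to 281 leaving out a library.

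Near 0, signs turned with the scaling, which moves the median of all regions. In the order median-of-ratios, trimmed-mean, loess and voom, the log2 change of the gene sum was -0.0076, -0.0068, -0.0423 and -0.0034 at Slc2a1, -0.11, -0.11, -0.0291 and -0.13 at Slc2a4, and -0.0824, -0.0816, -0.0186 and -0.10 at Hk2, where the sum near starts gave -0.0086. Leaving out a library gave -0.0593 to 0.11 at Slc2a4, -0.0966 to 0.14 at Hk2 and -1.13 to -0.90 at Slc2a3. At the start regions it gave -0.0787 to 0.12 for Slc2a4, where the values that turned were 0.11, 0.00089, 0.12 and 0.0063, and -0.17 to 0.0920 for Hk2, where they were 0.0920, 0.0718, 0.0475 and 0.0049.

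The median over Slc2a1 regions was 0.0014, 0.0022, 0.0099 and -0.0670 in the same order, 0.0115 without a filter, 0.22 with the higher filter and -0.0494 to 0.22 leaving out a library. That of Slc2a3 was -0.38 without a filter and -1.93 with the higher one, since regions enter or leave. For promoter levels, the highest single region gave -0.52 for Slc2a1 over Tbc1d1, 0.85 for Tbc1d1 over Tbc1d4 and 1.43 for Tbc1d4 over Slc2a3. Tbc1d1 over Tbc1d4 was -0.0914 within 500 bp and -0.0614 to 0.16 leaving out a library. The cause was not tested in the other cases.

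Same-numbered libraries did not clearly deviate together, with correlations of -0.064, 0.14, 0.023 and 0.025. Libraries with different numbers had -0.19 to 0.25. These are deviations from the mean of each group of 4 libraries, so they cannot decide whether the numbers pair the libraries. With the replicate number as a block, 1 member region and 100 of all regions passed, 130 gene sums passed against 33, and the Slc2a3 sum had a limma adjusted p of 0.00187. The planned quasi-likelihood and negative binomial count tests were not run. Depth limits weak regions most, since the median tested region held 6 reads in vehicle replicate 4.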
